A study of Mus musculus with 6 samples.

Results

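Complex I, the NADH:ubiquinone oxidoreductase, is the entry point of the mitochondrial respiratory chain. Its genes were followed in gastrocnemius, a calf muscle, of mice with and without a muscle-specific deletion of TAK1, the kinase encoded by Map3k7. Members were all genes whose symbol starts with Nduf and that had a probe set of their own, which gave 42 of the 22180 genes measured. Of these, 34 were named as subunits and 8 as assembly factors (Ndufaf genes). The group labelled Floxed TAK1 held 3 mice without deletion, and the group labelled muscle-specific TAK1-knockout held 3 littermates examined 3 weeks after deletion, with 1 array per mouse. The labels do not name the promoter that drove the deletion, any inducing agent, or the age or sex of the mice. All values are log2 levels, on which a difference of 1 is a doubling.

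As background, complex I is L-shaped. Its matrix arm has an N module, which takes electrons from NADH, and a Q module, which passes them along iron-sulphur clusters to ubiquinone. The membrane arm pumps protons and is built around subunits encoded by mitochondrial DNA, to which nuclear-encoded accessory subunits are added. Assembly factors help to build the complex without remaining in it. In skeletal muscle the complex is most abundant in oxidative fibres, and genes of the nuclear-encoded subunits are known targets of the transcription factors NRF1, YY1, the ETS family and the estrogen-related receptors.

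The members did not cover the whole complex. Apart from the copies Ndufs6b and Ndufs5-ps, 5 genes of the name lay only on probe sets shared with another gene or copy, namely Ndufb2, Ndufb4, Ndufb4b, Ndufb4c and Ndufs6. Of the 42 members, 41 lay above 5.85, the level below which 95% of the olfactory and vomeronasal receptor genes fell, which served as a guide to background. The exception was Ndufs5, a small subunit of the membrane arm, with 5.48 ± 0.25 in the control group and 5.60 ± 0.11 in the knockout group (SD, n = 3). Its differences are therefore limited by low signal.

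Promoters of 4 members are printed. Those of Ndufaf4 and Ndufa11 held the NRF1 core before the gene start, and Ndufa1 and Ndufb5 were the 2 members with the largest positive differences. The windows are the 250 bases before the gene start from the RefSeq table of build GRCm38.p6, 5′ to 3′ on the gene's strand. Capitals mark a match to a searched motif. Ndufaf4 and Ndufa11 had lower means in knockout muscle, and Ndufa1 and Ndufb5 had higher means. Their positions are chr4:24897833-24898082 (+) for Ndufaf4, chr17:56717512-56717761 (+) for Ndufa11, chrX:37191239-37191488 (-) for Ndufa1 and chr3:32736813-32737062 (+) for Ndufb5.
Ndufaf4: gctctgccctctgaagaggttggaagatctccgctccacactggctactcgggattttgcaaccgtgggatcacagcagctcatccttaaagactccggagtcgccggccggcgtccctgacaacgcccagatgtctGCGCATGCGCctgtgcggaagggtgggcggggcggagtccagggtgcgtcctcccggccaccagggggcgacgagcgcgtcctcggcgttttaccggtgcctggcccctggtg
Ndufa11: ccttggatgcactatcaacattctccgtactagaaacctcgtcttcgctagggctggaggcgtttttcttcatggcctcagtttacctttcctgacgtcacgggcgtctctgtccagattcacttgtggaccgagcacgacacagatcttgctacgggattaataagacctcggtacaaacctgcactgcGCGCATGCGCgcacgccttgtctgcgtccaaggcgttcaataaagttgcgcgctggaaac
Ndufa1: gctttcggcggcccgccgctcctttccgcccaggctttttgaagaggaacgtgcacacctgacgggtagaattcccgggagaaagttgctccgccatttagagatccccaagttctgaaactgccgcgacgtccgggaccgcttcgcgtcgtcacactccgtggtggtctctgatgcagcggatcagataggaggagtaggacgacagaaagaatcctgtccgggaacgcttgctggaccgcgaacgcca
Ndufb5: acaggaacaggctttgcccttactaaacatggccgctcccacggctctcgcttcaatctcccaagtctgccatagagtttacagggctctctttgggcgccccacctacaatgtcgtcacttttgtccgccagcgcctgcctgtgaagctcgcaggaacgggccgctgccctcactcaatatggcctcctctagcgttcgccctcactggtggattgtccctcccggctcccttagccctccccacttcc
The NRF1 core GCGCATGCGC starts 113 bases before the gene start of Ndufaf4 and 60 bases before that of Ndufa11. In Ndufaf5, whose window is not printed, it starts 16 bases after the first transcribed base. No match to the 4 motifs was found in the windows of Ndufa1 and Ndufb5.

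Motifs were searched on both strands from 250 bases before to 50 bases after the start of 37 members with an entry in that table. A gene with several starts counted once, and the motifs did not contain one another. The NRF1 core was present in 3 members (8.11%) against 1.07% of all 27025 genes with a promoter entry. The YY1 core AAGATGGC was present in 7 (18.9%, against 3.19%), the ETS core CCGGAAG in 6 (16.2%, against 9.93%) and the short site AAGGTCA of the estrogen-related receptors in 1, Ndufs5 (2.70%, against 5.38%). All 3 members with the NRF1 core, Ndufa11, Ndufaf4 and Ndufaf5, had lower means in knockout muscle, and 0 of them were called. Most of the 12 members with lower means, Ndufb11 and Ndufa4l2 included, were not among these 3. Of the 7 with the YY1 core 3 had higher and 4 lower means. Of the 6 with the ETS core 4 had higher and 2 lower means, and Ndufs5 had a higher mean. The motifs were matched with the differences known, so this is a description of these letters and no test.

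The arrays and their labels were checked first. Median log2 levels of the arrays ran from 5.78 to 5.84. Map3k7, the targeted gene, was at 8.47, 8.32 and 8.42 in controls and 8.20, 8.28 and 8.17 in knockouts, a mean difference of −12.1% with groups that did not overlap (limma, adjusted p = 0.686). Which exons were deleted is not given, so this level does not settle the labels. All 6 skeletal muscle markers were near the top of the scale, with summed log2 levels of 16.5 to 16.6 in both groups. Among markers of other cells, all 7 tenocyte genes had lower means in knockouts, and 0 were called. At an unadjusted p under 0.05 there were 4, each lower, as were 4.12% of all genes. Kera, a cornea and tendon proteoglycan, had a log2 fold change of −1.43, Tnmd, a tendon membrane protein, −1.02, and Fmod, another matrix proteoglycan, −0.93. Control and knockout values overlapped for Kera and Tnmd, but not for Fmod. Mkx, a tendon transcription factor and the other of these 4, lay below background in both groups. Summed tenocyte levels ran from 11.1 to 11.7 in controls and 10.2 to 11.3 in knockouts, with the other 6 genes above background. Tnnt2, a troponin of cardiac and immature muscle, was 0.30 higher (limma, adjusted p = 0.440), while 1 of the 4 cardiac markers lay below background. The part of these cells in the results on complex I was not tested. Markers of white and of mitochondria-rich brown adipocytes had summed levels of 9.13 to 9.65 in controls and 8.87 to 9.71 in knockouts. Ucp1, which defines brown adipocytes, lay below background in both groups. In bulk muscle, fewer cells of a type and less RNA per cell cannot be told apart.

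No complex I gene passed the test of knockout against control (limma, adjusted p of 0.05 over all genes). Among the 34 subunits and the 8 assembly factors 0 were called, and the lowest adjusted p was 0.504, for Ndufa1. Over all genes 21 were called, or 0.0947%. At an unadjusted p under 0.05 there were 4 members. Ndufa1 was the 1 higher (2.38% of members, against 3.93% of all genes), and Ndufb11, Ndufa4l2 and Ndufaf5 were the 3 lower (7.14%, against 4.12%). Of the 12601 genes above background, 509 were higher and 652 lower at that p. With all arrays, the unadjusted 95% confidence interval of the fold change lay within 1.5-fold in either direction for 40 of the 42 members. The other 2 were Ndufa1 and Ndufb5. Over all genes the interval lay within that limit for 19103 of 22180. Which members passed the limit depended on control 1. Without it, the intervals of Ndufa1 and Ndufb5 lay within the limit. Those of Ndufaf5 and Ndufb11 then reached beyond it, to log2 values of −0.67 and −0.64.

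Differences were small and mostly to the higher side. Means were higher in knockout muscle for 30 members (71.4%, against 49.9% of all genes) and lower for 12. The 34 subunits had a median log2 fold change of 0.08, or 5.78%, with 25 higher and 9 lower, beside a median of −0.0003 over all genes. The 8 assembly factors had a median of 0.06, with 5 higher and 3 lower. In 19 of the 42 members the difference was under 0.1 in size. The extremes were Ndufa1 at 0.34 and Ndufaf5 at −0.32.

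**Figure D1:**
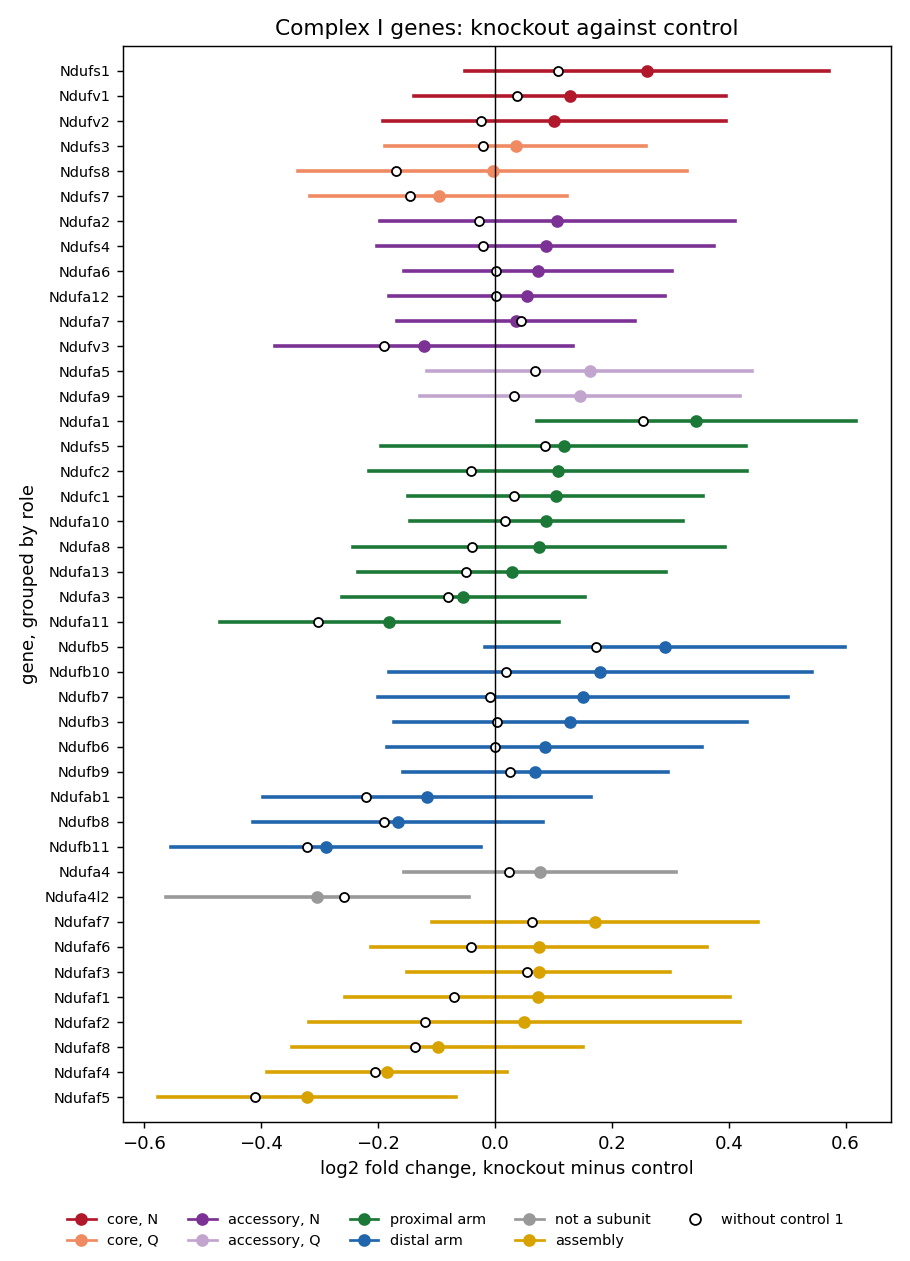
Log2 fold change of each of the 42 members (knockout minus control, filled points) with its 95% confidence interval from limma (lines), grouped and coloured by role. Open points give the value without control 1. Most filled points lie right of 0, up to 0.34 for Ndufa1, and most open points lie to the left of their filled point.

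The shift of the subunits depended on 1 control mouse. Control 1 had the lowest of the 6 values in 29 of 42 members (69.0%, against 17.9% of all genes) and the highest in 0. It lay lowest in 25 of the 34 subunits and in 4 of the 8 assembly factors. Control 1 minus the mean of controls 2 and 3 had a median of −0.26 over the subunits and −0.29 over the assembly factors. In absolute size, control 1 and the mean of controls 2 and 3 differed by a median of 0.26 over the subunits, 0.29 over the assembly factors and 0.14 over all genes. Controls 2 and 3 differed from each other by a median of 0.06 over the subunits, 0.14 over the assembly factors and 0.15 over all genes.

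Without control 1 the subunits had a median log2 fold change of −0.004, with 16 higher and 18 lower. The assembly factors had a median of −0.10, with 2 higher and 6 lower. Again 0 members were called, against 7 of all genes (0.0316%). At an unadjusted p under 0.05 there were then 3 members (7.14%, against 6.77% of all genes), a share near that of all genes. They were Ndufaf5, Ndufa11 and Ndufb11, each lower in knockout muscle, as were 3.45% of all genes at that p. Control 1 was the lowest array for most subunits, so leaving it out had to lower most of their fold changes. With 1 other array left out, the subunit median ran from 0.06 (without knockout 2) to 0.13 (without control 2).

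**Figure D2:**
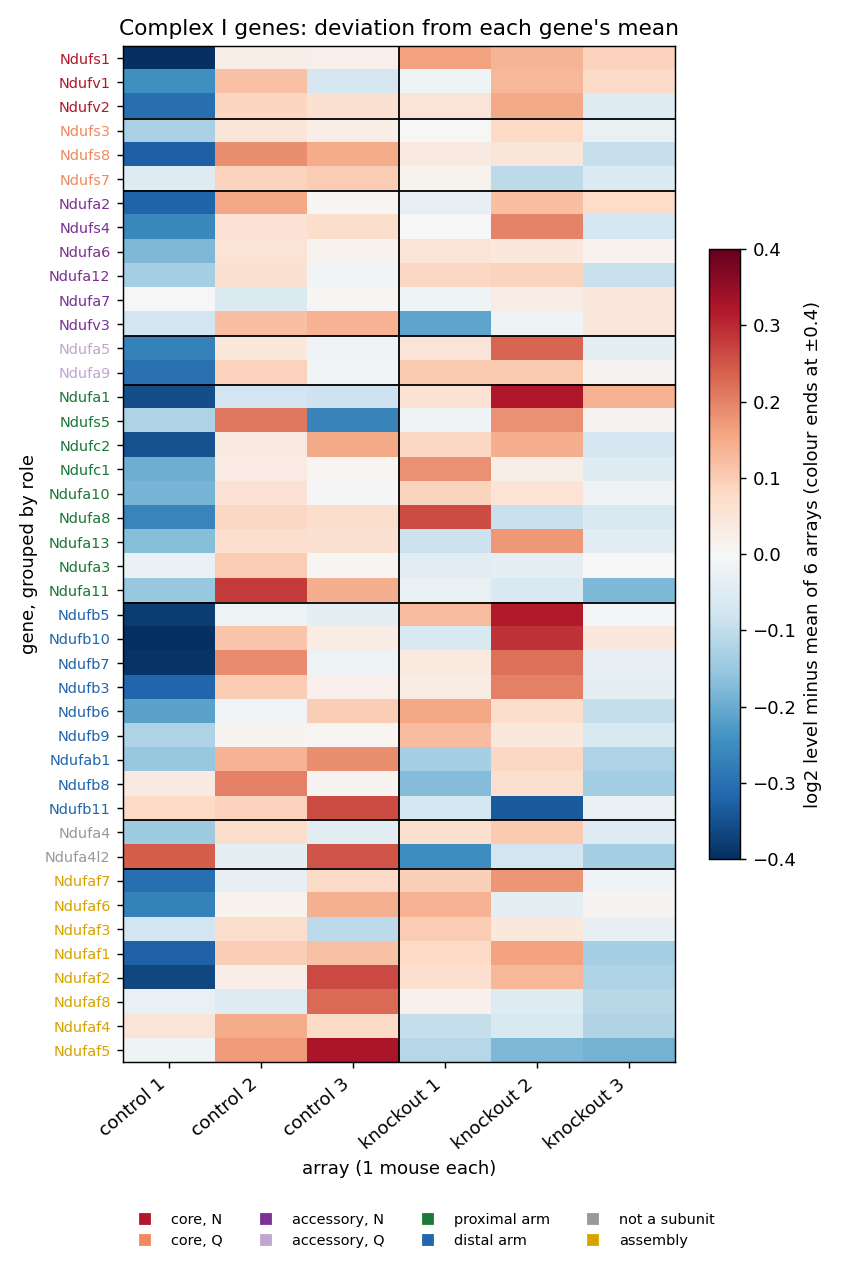
Log2 level of each member minus its mean over the 6 arrays, with genes in rows grouped by role and arrays in columns. Blue cells are below and red cells above the gene's mean. The control 1 column is blue for most genes and is the lowest value in 29 of 42, with Ndufb11, Ndufb8, Ndufa4l2 and Ndufaf4 as red exceptions.

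Some markers of oxidative fibres were also lowest in that mouse. Myh2, the myosin heavy chain of fast oxidative fibres, was at 12.09, 13.01 and 12.93 in controls and 12.73, 13.00 and 12.55 in knockouts. Myoglobin, Mb, which stores oxygen in oxidative fibres, was at 12.48, 13.01 and 12.87 in controls and 12.87, 13.07 and 12.88 in knockouts. Both had their lowest value in control 1, and they were the 2 of 9 slow or oxidative fibre markers that did. Over all genes, control 1 was lowest in 17.9%. Myh7, the slow myosin, was lowest in control 3, at 9.50. Tnnt1, Tnni1, Tnnc1 and Atp2a2, of the same list, were also lower in control 3 than in control 1. The summed level of the 9 markers was 13.9 in control 1 and 14.2 to 14.6 in the other arrays. Levels were summed on the linear scale, so the sum mostly follows the brightest markers, Myh2 and Mb. Of the 9 markers, 0 were called. Markers of endothelium, which is dense around oxidative fibres, were lowest in control 1 for 4 of 5 genes, with a summed level of 11.1 against 11.3 to 11.5 elsewhere. The part of fibre type or vessels in the complex I values was not tested.

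The N module holds the subunits that oxidise NADH. Ndufs1, its largest iron-sulphur subunit, was at 10.81, 11.27 and 11.26 in controls and 11.40, 11.38 and 11.33 in knockouts. All knockout values lay above all control values, but control 1 stood far below the other controls, which lay close to the knockouts. The log2 fold change was 0.26 (SE 0.14, limma adjusted p = 0.705), and 0.11 without control 1. Ndufv1, the subunit that binds NADH and flavin, was at 10.38, 10.75 and 10.56 against 10.61, 10.76 and 10.70. Its groups overlapped, with a log2 fold change of 0.13 (95% confidence interval −0.14 to 0.39) that was 0.04 without control 1. Ndufv2, which carries an iron-sulphur cluster beside it, was at 11.16, 11.55 and 11.53 against 11.52, 11.62 and 11.41. Here too only control 1 stood apart, and the difference of 0.10 became −0.02 without it.

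The accessory subunits of the N module were Ndufa2, Ndufa6, Ndufa7, Ndufa12, Ndufs4 and Ndufv3. Their log2 fold changes ran from −0.12 (Ndufv3) to 0.11 (Ndufa2), with 5 higher, 1 lower and a median of 0.06, or −0.01 without control 1. Ndufv3, which has tissue-specific splice forms, was at 7.89, 8.08 and 8.10 in controls and 7.75, 7.94 and 8.01 in knockouts. Knockout 1 was its lowest value and the groups overlapped, and the difference was −0.05 without that array and −0.19 without control 1. Ndufa7 varied least, with an SD of 0.03 in each group and a difference of 0.04.

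The Q module holds the clusters nearest to ubiquinone. Ndufs7, which carries the last cluster of the chain, was at 11.64, 11.78 and 11.79 in controls and 11.70, 11.59 and 11.64 in knockouts. Here the groups overlapped because control 1 lay among the knockouts, and the log2 fold change was −0.10 (95% confidence interval −0.32 to 0.12), or −0.15 without control 1. Ndufs8, which carries 2 clusters of the matrix arm, was at 10.25, 10.76 and 10.72 against 10.61, 10.62 and 10.48. Its control values were split on both sides of the knockouts, with a difference of −0.004, or −0.17 without control 1. Ndufs3, a scaffold subunit, was at 7.78, 7.96 and 7.94 against 7.92, 7.99 and 7.88, a difference of 0.04. The 3 measured core subunits of the Q module thus had a median of −0.004, and all 3 were lower without control 1, with a median of −0.15. The same values for the 3 core subunits of the N module were 0.13 with and 0.04 without control 1. The difference between the modules was not tested. Of its accessory subunits, Ndufa5 was at 8.47, 8.78 and 8.73 in controls and 8.79, 8.97 and 8.70 in knockouts, a difference of 0.16 with overlapping groups. Ndufa9 had a difference of 0.15, and without control 1 the values were 0.07 and 0.03.

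Ndufa1, a small membrane subunit encoded on the X chromosome and needed for assembly, had the largest difference among the members. It was at 9.65, 9.93 and 9.92 in controls and 10.06, 10.33 and 10.14 in knockouts. All knockout values lay above all control values, and the mean was 27.0% higher. The log2 fold change was 0.34 (SE 0.12, 95% confidence interval 0.07 to 0.62), with a limma adjusted p of 0.504. Without control 1 it was 0.25 (adjusted p = 0.776). Ndufa11, a subunit of the membrane arm, was at 10.34, 10.78 and 10.64 in controls and 10.47, 10.43 and 10.32 in knockouts. Control 1 lay among the knockouts, so the groups overlapped, with a log2 fold change of −0.18 that was −0.30 without it (adjusted p = 0.674) and −0.09 without control 2. Over the 9 measured accessory subunits of the proximal membrane arm, 7 means were higher and 2 lower, with a median of 0.09, or −0.04 without control 1.

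The distal membrane arm held the widest range, from −0.29 to 0.29. Ndufb5 was at 9.64, 10.00 and 9.99 in controls and 10.15, 10.34 and 10.02 in knockouts. Knockout 3 stood just above controls 2 and 3, and the groups did not overlap. The log2 fold change was 0.29 (SE 0.13, limma adjusted p = 0.646), or 0.17 without control 1. Ndufb11, another X-linked subunit of this arm, was at 7.76, 7.77 and 7.94 in controls and 7.61, 7.34 and 7.65 in knockouts. Every knockout was below every control, with knockout 2 the lowest. Its log2 fold change was −0.29 (SE 0.12, adjusted p = 0.581), and −0.19 without knockout 2. Control 1 lay beside control 2 for this gene.

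Ndufb10 was at 7.91, 8.44 and 8.36 in controls and 8.26, 8.61 and 8.37 in knockouts, a difference of 0.18 that was 0.02 without control 1. Ndufb8, often used as a protein marker of assembled complex I, was at 8.19, 8.36 and 8.17 against 7.98, 8.22 and 8.02, a difference of −0.17 with overlapping groups, or −0.11 without control 2. Ndufab1, the mitochondrial acyl carrier protein, was at 8.17, 8.46 and 8.51 against 8.19, 8.41 and 8.20, a difference of −0.12 that was −0.22 without control 1 and −0.05 without control 3. It was spread as widely within each group as between them. The median of the 9 measured genes of this arm was 0.08, with 6 higher and 3 lower, and −0.001 without control 1.

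**Figure D3:**
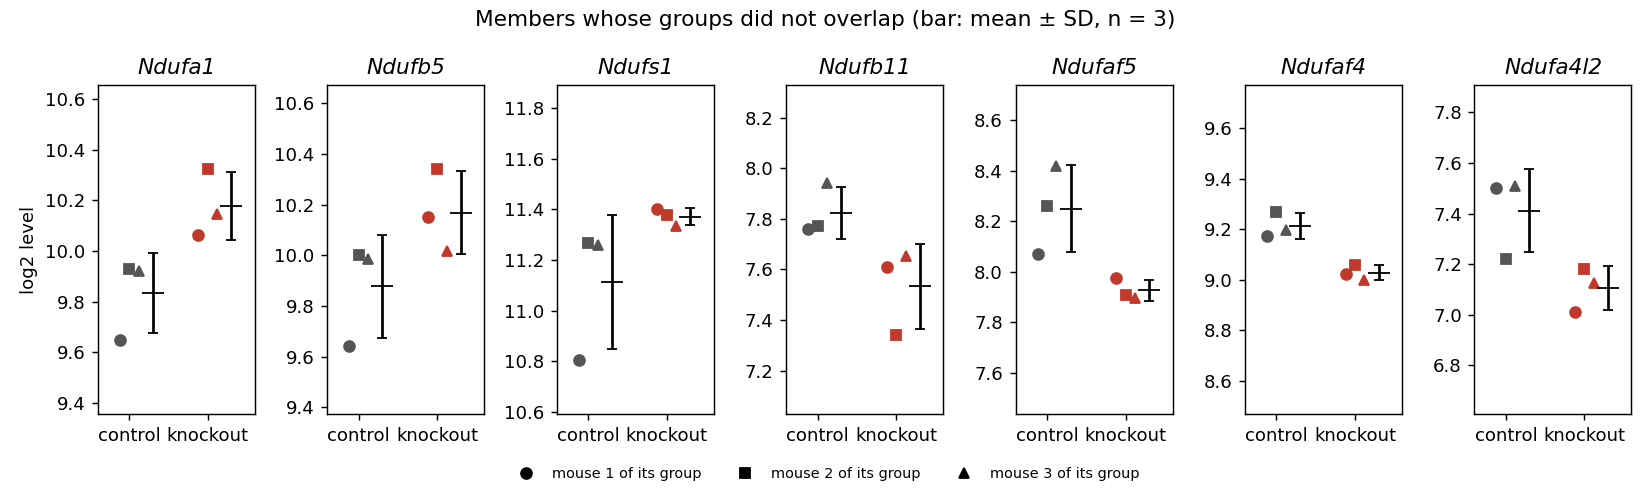
Log2 levels of the 7 members whose control and knockout values did not overlap, with each mouse as a point (grey control, red knockout) and the mean ± SD beside it (n = 3 per group). All panels span the same range of log2 units. Control 1 (grey circle) stands well below the other controls for Ndufa1, Ndufb5 and Ndufs1, and lies close to another control for Ndufb11, Ndufaf4 and Ndufa4l2.

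Groups did not overlap in 7 members. In 3 of them, Ndufa1, Ndufb5 and Ndufs1, all knockout values were above (7.14%, against 6.74% of all genes). In 4, Ndufb11, Ndufaf5, Ndufaf4 and Ndufa4l2, all were below (9.52%, against 6.65%). Of the 12601 genes above background, all knockout values were above in 963 and below in 1048. The first share is near that of all genes. The second is nearer to that of the genes above background, rests on 4 genes and was not tested.

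Assembly factors lay on both sides of 0. Ndufaf5, an enzyme that hydroxylates an arginine of Ndufs7 during assembly of the Q module, had the lowest fold change of all members. It was at 8.07, 8.26 and 8.42 in controls and 7.98, 7.91 and 7.90 in knockouts. Knockout values lay close together and below all controls, a mean difference of −20.0% on the linear scale. The log2 fold change was −0.32 (SE 0.11, 95% confidence interval −0.58 to −0.07), with a limma adjusted p of 0.506. Without control 1 it was −0.41 (adjusted p = 0.491), and without control 3 it was −0.24. Ndufaf8, a small partner that stabilises Ndufaf5, was at 7.78, 7.76 and 8.03 in controls and 7.83, 7.76 and 7.70 in knockouts. Only control 3 stood apart, and the difference of −0.10 became −0.01 without it.

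Ndufaf3 and Ndufaf4 act together early in assembly of the Q module. Ndufaf4 was at 9.17, 9.27 and 9.20 in controls and 9.02, 9.06 and 9.00 in knockouts. Both groups were tight and did not overlap, with a log2 fold change of −0.18 (SE 0.09, limma adjusted p = 0.670) that ran from −0.20 to −0.16 when single arrays were left out. Ndufaf3 was at 7.76, 7.91 and 7.73 against 7.94, 7.88 and 7.80, a difference of 0.07 with overlapping groups that ran from 0.04 to 0.13 when single arrays were left out. The partners thus had fold changes of opposite sign, neither of which passed the test. Ndufaf7, a methyltransferase that acts early in assembly, was at 7.94, 8.21 and 8.32 against 8.34, 8.42 and 8.23, a difference of 0.17, or 0.06 without control 1. Ndufaf6, needed early in assembly, was at 7.58, 7.86 and 7.99 against 7.99, 7.81 and 7.86, a difference of 0.08, or −0.04 without control 1.

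Ndufaf1, which helps to build the proximal membrane arm, was at 8.43, 8.85 and 8.87 in controls and 8.83, 8.91 and 8.62 in knockouts. Ndufaf2, a relative of Ndufa12 that acts late when the N module is added, was at 6.19, 6.58 and 6.82 against 6.63, 6.69 and 6.44. In both genes control 1 was the low value and the groups overlapped. Their log2 fold changes were 0.07 and 0.05, and −0.07 and −0.12 without control 1.

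Assembly genes named otherwise had a median near that of the Ndufaf genes with all arrays, but not without control 1. Of 12 listed, 11 were measured, with 8 higher, 3 lower, a median log2 fold change of 0.08 and 0 called or at an unadjusted p under 0.05. Control 1 was lowest in 8 of the 11. Without it the median was 0.04, with 7 higher and 4 lower, against −0.10 for the Ndufaf genes, with 2 higher and 6 lower. Nubpl, which delivers iron-sulphur clusters to the complex, was at 6.26, 6.48 and 6.48 in controls and 6.57, 6.56 and 6.66 in knockouts. It was the 1 gene of the list whose groups did not overlap (log2 fold change 0.19, limma adjusted p = 0.711). Tmem126b, a membrane assembly factor, had the lowest value at −0.20. Both genes were picked with their values known.

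Ndufa4 and Ndufa4l2 carry the name but are not held to be complex I subunits. Ndufa4, which belongs to cytochrome c oxidase, was at 12.29, 12.50 and 12.39 in controls and 12.50, 12.54 and 12.38 in knockouts, a difference of 0.08, or 0.02 without control 1. Its relative Ndufa4l2, a hypoxia-induced gene, was at 7.50, 7.22 and 7.51 against 7.01, 7.18 and 7.13. All knockout values were below all controls, with control 2 and knockout 2 the nearest. The log2 fold change was −0.30 (SE 0.11, limma adjusted p = 0.540). Without this pair the median of the remaining 32 subunits was 0.09.

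Subunits encoded by mitochondrial DNA were measured as well. All 7 had their lowest value in control 1, yet by little, with a median of −0.06 against controls 2 and 3. Their log2 fold changes ran from −0.01 (ND3) to 0.07 (ND1), with 6 higher, 1 lower and 0 called. ND1 was at 14.04, 14.08 and 14.07 in controls and 14.07, 14.19 and 14.15 in knockouts. Except for ND6, which lay at 11.17 in control and 11.19 in knockout muscle, these genes had means of 13.8 to 14.3, close to the arrays' highest values of 14.3, where a difference can be compressed. ND6 was at 10.96, 11.29 and 11.25 in controls and 11.13, 11.34 and 11.11 in knockouts, with control 1 clearly the lowest.

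The low values of control 1 were not particular to complex I. Among 48 genes of complexes II to V, control 1 was lowest in 36, against 33 of 71 genes of the mitochondrial ribosome. Complexes II to V had a median log2 fold change of 0.10 with all arrays and 0.01 without control 1, and the ribosomal genes 0.04 and 0.02. In all 3 sets 0 genes were called. Median deviations of the complex I subunits from each gene's mean were −0.19, 0.08 and 0.02 on the control arrays, and 0.03, 0.09 and −0.04 on the knockout arrays. Those of the assembly factors were −0.17, 0.05 and 0.13 on the control arrays, and 0.07, 0.003 and −0.12 on the knockout arrays, so that knockout 3 was the second low array for them. The spread within control muscle was accordingly wider for the subunits, with a median SD of 0.16 against 0.10 in knockout muscle, while over all genes both were 0.13.

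**Figure D4:**
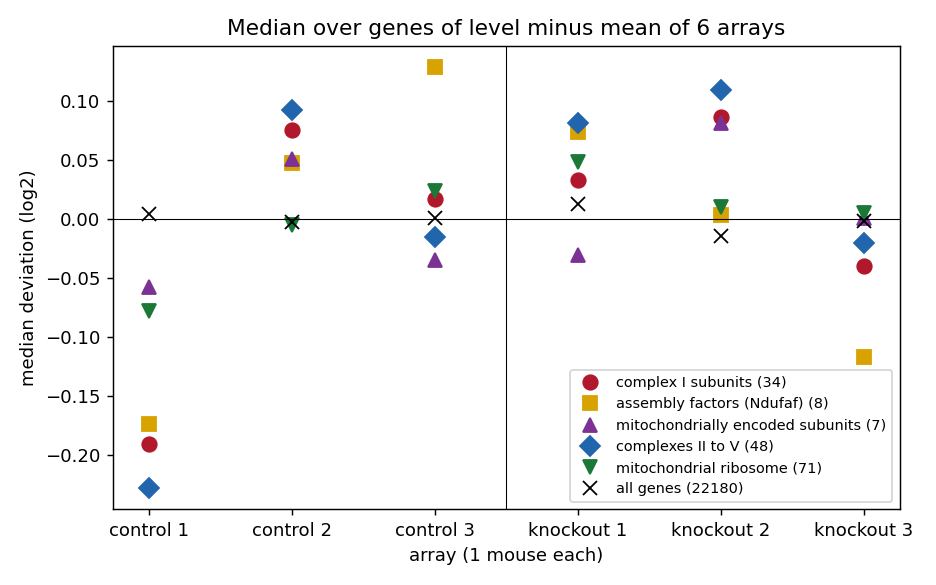
Median over genes of the log2 level minus the gene's mean of 6 arrays, for each array and for 6 gene sets, with set sizes in the legend. Control 1 is lowest for the complex I subunits (−0.19) and complexes II to V (−0.23), while the median over all genes stays near 0 on every array.

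Probe sets that shared a name or a gene gave further values. The 6 probe sets with several symbols had log2 fold changes from −0.13 (Ndufs1 with Ino80dos) to 0.19 (1 of the 2 for Ndufs6 and its copy Ndufs6b). Those for Ndufb2 with Adck2 and for Ndufb4 with its copies had 0.02 and 0.04. Copies of a gene cannot be told apart on them. The brighter probe set for Ndufs5 and its pseudogene had 0.07 at a control level of 9.12, against 0.12 for the dim one that represents Ndufs5. Ndufa8, Ndufa11 and Ndufa12 had a second probe set of their own. For Ndufa8 the sets disagreed in sign, at 0.07 and −0.14, and so did those of Ndufa12, at 0.05 and −0.05. For Ndufa11 both were negative, at −0.18 and −0.07.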

How the data were processed

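RNA of gastrocnemius from 6 mice, 3 per group, was measured on Affymetrix arrays. The authors deposited log2 probe set summaries, and RMA, oligo and limma are named per the submitters' processing notes, without versions or order. RMA subtracts background and makes the arrays alike. Differences of dim genes can still be compressed, and the number of arrays limits the precision. Batches were not tested, since scan dates were not used here. Gene symbols came from GEO's annotation of the platform: of 41345 probe sets, 23521 had 1 symbol, 1814 several and 16010 none. The probe set with the highest mean represented a gene.

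Knockout and control arrays were fitted in R 4.3.3 with limma 3.58.1 (lmFit, eBayes, two-sided, Benjamini-Hochberg over 22180 genes, adjusted p of 0.05). This fit was tested on simulated data. The planted differences were larger than that of any member, so the simulation does not bear on differences of the members' size. The members and lists were chosen with earlier results of these data known, so no set test is given. Values per array are given for measured core subunits, all Ndufaf genes, Ndufa4, Ndufa4l2 and the 5 subunits with the largest difference in each direction. Other members, such as Ndufa7, were picked with their values known. Macrophage markers (6 genes, median log2 fold change 0.01) and Schwann cell markers (3 measured, 0.02) held 0 called genes. Plots used matplotlib 3.10.9 in Python 3.11.15. Alternatives were other normalizations, probe set rules, filters on dim genes, variance models, array weights, a replicate block and leaving out each array.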

Additional observations from a re-analysis of the deposited data

How the results depend on the processing

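Over all alternatives run, 0 of the 42 members were called, including each fit without 1 array. Of the 418 member values from alternatives that kept all arrays, 1 changed sign: Ndufa8 was at −0.033 with the mean over probe sets. The lowest adjusted p of a member was 0.276 there and 0.393 without 1 array. The count over all genes (21) was 4 with every named probe set tested, 53 with genes above the median level only, 45 with only genes brighter than the receptor-gene level, 36 with an intensity trend and robust prior, 0 with ordinary per-gene variance, and 2 to 11 without 1 array. The subunit median ran from −0.004 (without control 1) to 0.13 (without control 2), and the assembly factor median from −0.10 (without control 1) to 0.10 (without knockout 3). Over the same 6 fits, 18 of 252 member values changed sign, in 13 members. Their values ran from −0.050 to 0.080 for Ndufa13, −0.027 to 0.21 for Ndufa2, −0.038 to 0.14 for Ndufa8, −0.00060 to 0.16 for Ndufb6, −0.0084 to 0.28 for Ndufb7, −0.040 to 0.21 for Ndufc2, −0.020 to 0.14 for Ndufs4, −0.071 to 0.16 for Ndufaf1, −0.12 to 0.20 for Ndufaf2, −0.041 to 0.17 for Ndufaf6, −0.020 to 0.069 for Ndufs3, −0.17 to 0.088 for Ndufs8 and −0.024 to 0.17 for Ndufv2. The labels do not say that replicate numbers pair the mice, and correlations of deviations across genes between same-numbered arrays were 0.08, 0.21 and −0.07, not all over 0.1. With the replicate block, 17 genes and 0 members were called and the subunit median was 0.08. The cause of these changes was not tested.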
